A study of Mus musculus with 6 samples.

Results

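The genes of the cytoplasmic ribosomal proteins were followed in mouse heart cells after myocardial infarction (MI). Members were taken by name: gene symbols that begin with Rpl or Rps followed by a digit, without the Rps6k kinases and without pseudogene names. Among the 17714 genes deposited, 104 matched the pattern, and leaving out 10 kinases and 9 pseudogenes gave 85 members, 52 with large subunit (Rpl) names and 33 with small subunit (Rps) names. RNA sequencing libraries were compared between 3 MI and 3 sham-operated samples, all labelled wild type, heart, lymphatic endothelial cells and day 3. The protocols mention both heart tissue and primary endothelial cells as the source, do not say which of them these libraries are, give a culture medium with serum and describe no sorting. Nothing ties each library to its own animal, so every p-value reflects spread among the 6 libraries, which may be technical.

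A ribosome joins a small subunit, which reads the messenger RNA, to a large subunit, which forms the peptide bond. Each subunit holds many proteins, most encoded in mammals by 1 expressed gene, and cells coordinate their supply mainly through translation of their messages. These messages begin with a run of C and U bases, the terminal oligopyrimidine tract, through which mTOR and Larp1 control how much of each is translated. The amount of such a message therefore does not give the rate of protein synthesis. Some members have a paralog with tissue-restricted use, of which Rpl3l in heart and skeletal muscle is the best known.

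Runs of C and T near the annotated start, where such a tract would be encoded, are shown for members with some of the larger differences between the groups; a run away from the exact start need not be the tract. RefSeq windows of GRCm38.p6, from 250 bases before to 50 after an annotated start, were found for 65 members. For each of 7 members, 30 bases around the longest run of C and T between 50 bases before and 50 after the start are printed 5′ to 3′ on the gene's strand, with that run in capitals. The first 4 belong to members higher in MI and the last 3 to members lower in MI.
Rpl36al: gctctgttcgTCCCTTTCCTgttcggcgcg
Rps2: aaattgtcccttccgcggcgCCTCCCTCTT
Rpl10a: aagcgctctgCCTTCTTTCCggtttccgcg
Rpl10: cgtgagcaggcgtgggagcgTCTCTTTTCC
Rps27: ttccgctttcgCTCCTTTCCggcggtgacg
Rps21: ggaggcacgagctaCTTCCTTTCTgcgctc
Rps24: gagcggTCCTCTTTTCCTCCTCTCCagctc
They lie at chr12:69184020-69184049 (Rpl36al, minus strand), chr17:24720083-24720112 (Rps2, plus), chr17:28328572-28328601 (Rpl10a, plus), chrX:74270836-74270865 (Rpl10, plus), chr3:90213632-90213661 (Rps27, minus), chr2:180257399-180257428 (Rps21, plus) and chr14:24490710-24490739 (Rps24, plus). Of the runs printed above, only that of Rps27 (bases -2 to 7) spanned the start, and those of Rps2 and Rpl10 (41 to 50) ended at the window's edge. A run of at least 5 C or T bases that covered the start itself was found in 21 of 65 members (32.3%) and 11.1% of other tested genes. A run of at least 8 C or T bases stood within 50 bases of the start in 53 of 65 members (81.5%), against 3962 of 10566 other tested genes (37.5%). The letters CTTTCC on the gene's strand, which can lie inside such a run, were found there in 21 members (32.3%) and in 5.21% of the other genes. CTTTCC stood in 2 of 6 members higher in MI and in 8 of 22 lower in MI that had a window. Over the whole window and on both strands, the letters CCGGAAGT, bound by ETS factors, were present in 16.9% of members and 8.58% of other genes, AAGATGGC, bound by YY1, in 9.23% and 4.99%, GGGCGG, bound by Sp1, in 58.5% and 66.7%, and TATAAA in 10.8% and 9.26%. Apart from the run that covered the start itself, the C and T run and CTTTCC searches were added after seeing the data. Genes with several annotated windows were counted if any held the letters, and a match is a description of the sequence, not a site of binding.

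The MI libraries held 21154200 to 21689212 estimated counts and the sham libraries 3206373 to 3591135, so depth followed the group. Markers of several cell types changed with it. All 8 macrophage and monocyte markers were higher in MI, with a summed level of 15114 to 16579 CPM (counts scaled to a common library size) in MI and 2862 to 3007 in sham. All 8 pan-endothelial markers were lower, with 1626 to 1647 CPM in MI and 7055 to 7131 in sham, and all 8 cardiomyocyte markers were lower, with 139 to 179 CPM in MI and 3280 to 3391 in sham. Of 7 lymphatic markers, 6 were lower and 1 higher, with sums of 252 to 262 CPM in MI and 388 to 402 in sham. Neutrophil markers (5 of 5) were higher, with 603 to 767 CPM in MI and 34.4 to 42.6 in sham, and red cell markers (4 of 4) were lower, with 42.5 to 62.7 CPM in MI and 1250 to 1322 in sham. Fibroblast markers (2 higher, 3 lower) summed to 1002 to 1044 CPM in MI and 982 to 985 in sham, and lymphocyte markers to 5.57 to 8.10 CPM in MI and 5.39 to 10.1 in sham, with 1 of 5 at 0 in all MI libraries. None of the macrophage, endothelial, cardiomyocyte or lymphatic markers was at 0 in any library, and Prox1, the defining lymphatic transcription factor, stood at 1.26 ± 0.456 CPM in MI and 7.12 ± 0.548 in sham (SD, n = 3 each). In such mixed RNA, fewer cells of a type and less RNA per cell cannot be told apart, and the part of these shifts in the ribosomal protein values was not tested.

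Ribosomal protein transcripts took a smaller share of the counts in every MI library than in any sham library. They made up 3.01%, 4.03% and 3.67% of the counts in MI 1, MI 2 and MI 3, and 5.09%, 5.07% and 4.87% in sham 1, sham 2 and sham 3. These shares did not overlap between groups, and within MI the libraries spread over a wider range than the sham libraries did. Summed CPM of the members, scaled as for the markers above, did overlap. The sums were 33761, 46005 and 41334 CPM in MI 1, MI 2 and MI 3, and 45218, 44873 and 43168 CPM in sham 1, sham 2 and sham 3. The mean share was 3.57 ± 0.518% in MI and 5.01 ± 0.117% in sham (SD, n = 3 each), or 3.85% in MI without MI 1. The 95% Wilson interval of each library reached at most 0.0236 percentage points to either side and covers counting error only. In the authors' TPM (transcripts scaled to the same total in each library), which divide by length, the share was 9.80 ± 1.04% in MI and 12.3 ± 0.355% in sham. A share of all counts also falls when other transcripts rise, and the part of such a rise in MI was not tested. Without LOC118568718 and Gm20594 in the total the share stayed at 3.57% in MI and went from 5.01% to 5.25% in sham. Leaving them out therefore changed the sham total and does not address transcripts that rose in MI.

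**Figure D1:**
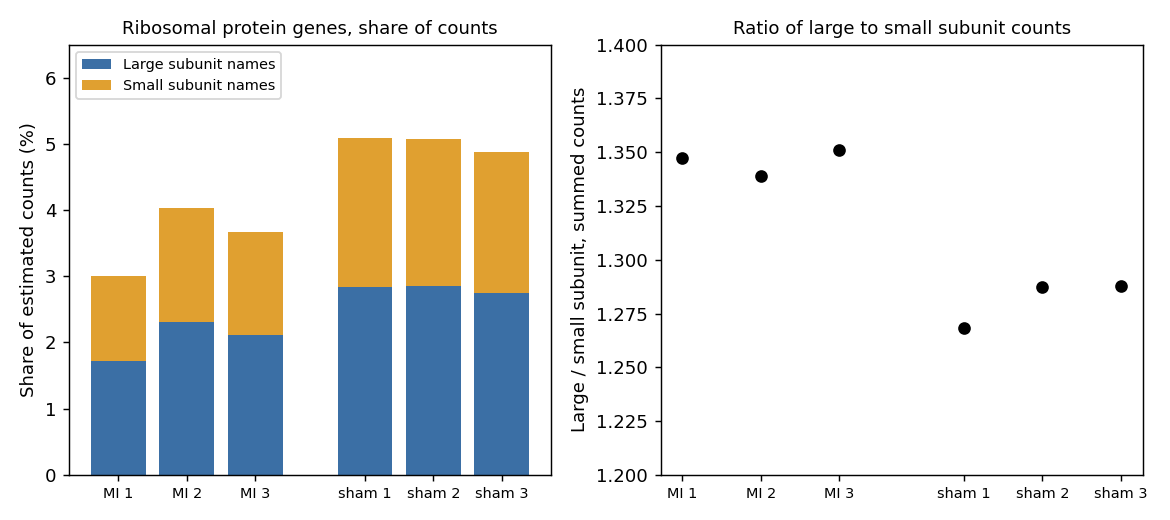
Left, share of estimated counts (%) in genes with large (blue) and small (orange) subunit names, as stacked bars for each library; right, ratio of the summed counts of large to small subunit genes, 1 point for each library, on an axis that does not start at 0. The MI bars end between 3.01% and 4.03% and the sham bars between 4.87% and 5.09%, and the MI ratios (1.34 to 1.35) lie above the sham ratios (1.27 to 1.29).

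Large subunit genes kept slightly more of the ribosomal protein counts in MI. The ratio of large to small subunit counts was 1.35, 1.34 and 1.35 in MI 1, MI 2 and MI 3, and 1.27, 1.29 and 1.29 in the sham libraries, a mean of 1.35 ± 0.00618 in MI and 1.28 ± 0.0109 in sham (SD, n = 3 each). The groups did not overlap, MI 1 lay between MI 2 and MI 3, and the ratio needs no scaling between libraries. In TPM it was 1.23 ± 0.00384 in MI and 1.15 ± 0.0106 in sham. Large subunit names took 2.05 ± 0.295% of the counts in MI and 2.81 ± 0.0604% in sham, and small subunit names took 1.52 ± 0.223% in MI and 2.20 ± 0.0583% in sham.

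Gene by gene, most ribosomal protein genes differed little between the groups, and those that passed were mostly lower in MI. Lower calls were about as common as among all genes, while higher calls were much rarer. Of 85 members 81 passed the filter on low counts, and 6 rose and 31 fell at an adjusted p below 0.05 in edgeR's quasi-likelihood test (libraries scaled by TMM, Benjamini-Hochberg adjustment over all genes tested). Among all 13370 genes tested 73.3% were called, 36.4% higher and 36.9% lower in MI, beside 37 of 81 members called in either direction. The median log2 fold change (MI minus sham) was -0.20 over the members and -0.01 over all genes tested. A called change of at least 2-fold was found for 1 member, Rpl3l, against 41.4% of all genes. MI lay below sham without overlap at 27 members and above it at 6, against 38.1% and 38.0% of all genes. Scaled to total counts, 0 members rose and 67 fell, against 26.5% and 49.6% of all genes, the member median was -0.55 and that of all genes -0.36, so the members lay 0.18 below all genes under either scaling.

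This result depended on single libraries, among them MI 1. Without it 26 members rose and 28 fell of 80 tested, against 40.9% and 40.1% of all genes, and the member median was -0.04 and that of all genes -0.00. Of the 31 members that fell with all libraries, 28 also fell without MI 1 and 3 (Rpl15, Rpl26 and Rpl31, named after their values were seen) were not called, and 20 members that had not been called rose. Without sham 1 the lower calls numbered 18 and without sham 2 they numbered 17, against 32.1% and 32.2% of all genes. Without MI 2, 5 members rose and 45 fell, against 36.8% and 37.6% of all genes, with a member median of -0.29. Over the main setting and 14 alternatives, 16 members fell in every one and 0 rose in every one. Another 13 members were called higher in some settings and lower in others. The shares of all genes that did either were not counted. In single settings 27.2% to 49.6% of all genes were called lower.

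**Figure D2:**
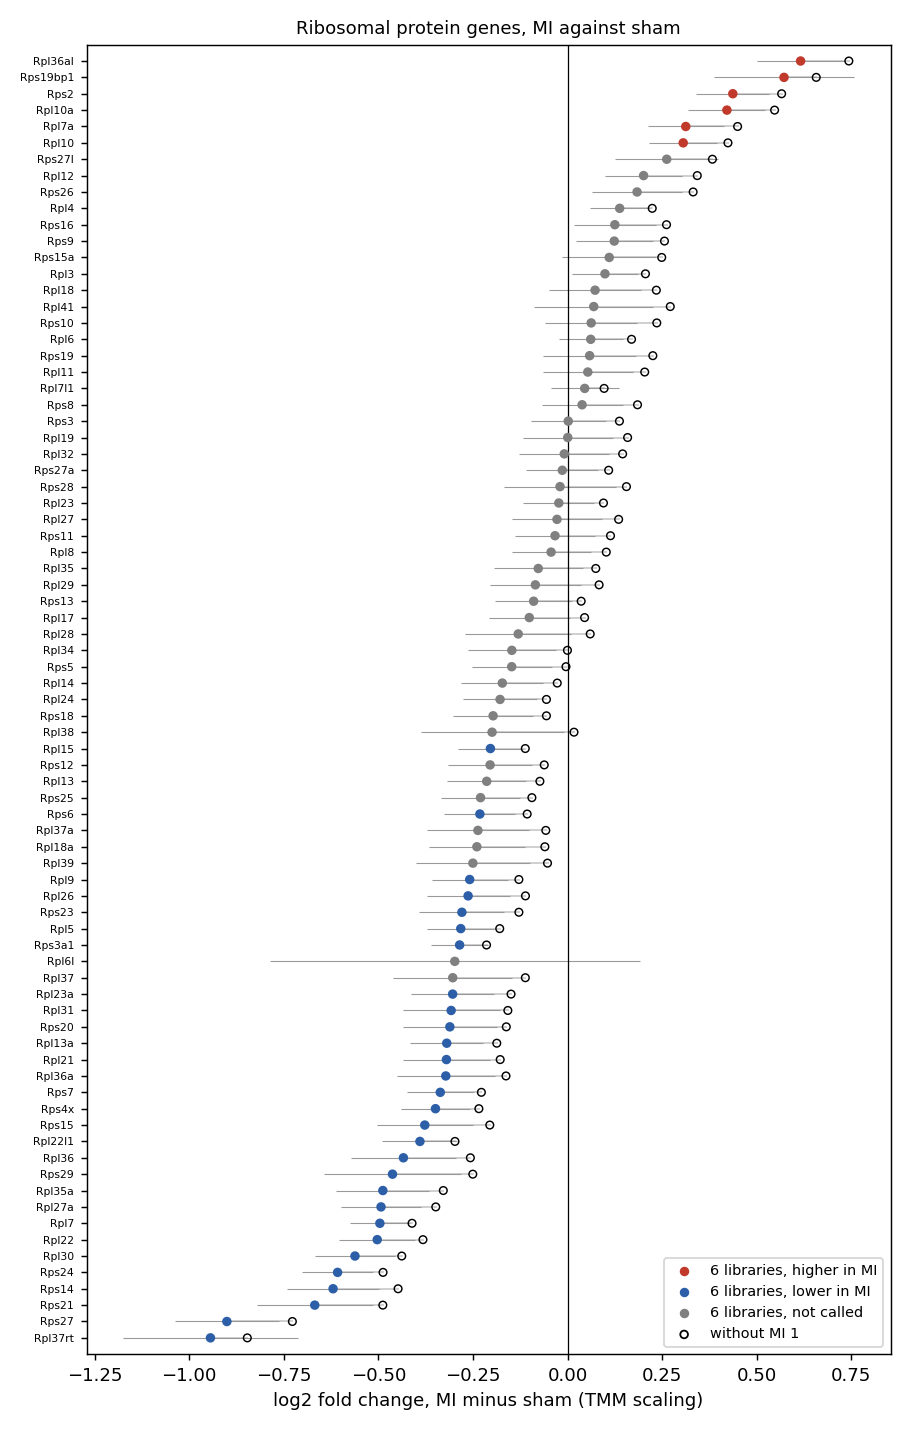
Log2 fold change (MI minus sham, TMM scaling) of the tested members without Rpl3l (-4.30) and 1 that is not reported here, sorted by value, with bars of 1 standard error. Filled points use all 6 libraries and are coloured by call, open points leave out MI 1 (Rpl6l was then not tested), and every open point lies to the right of its filled point. Not plotted are the values scaled to total counts, below 0 for Rpl10 (-0.05), Rpl7a (-0.04), Rpl4 (-0.21), Rpl3 (-0.25) and Rpl7l1 (-0.30).

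The members that rose were few and were not called when libraries were scaled to total counts. Rps2, which lies near the entry of the messenger RNA channel of the small subunit, stood at 1253, 1655 and 1518 CPM in MI, against 1102, 1099.7 and 1069 CPM in sham. The lowest MI value was above the highest sham value, and the log2 fold change was 0.44 ± 0.10 (SE; adjusted p = 0.00142, edgeR), or 0.09 scaled to total counts, where it was not called. Rpl10, one of the last proteins to join the large subunit, had 1203, 1504.5 and 1463 CPM in MI and 1084, 1127.5 and 1163 CPM in sham. Its log2 fold change of 0.31 ± 0.09 (adjusted p = 0.00902, edgeR) was -0.05 and not called scaled to total counts. Rpl10a, of the stalk beside the exit site of transfer RNA, had 322, 425 and 386 CPM in MI and 296, 279.9 and 270.3 CPM in sham (log2 fold change 0.42 ± 0.10). The values of Rpl10a did not overlap between groups. Rpl7a, on the surface of the large subunit, rose by 0.31 ± 0.10 on the log2 scale, a sign that turned to -0.04, not called, with total counts. Rpl36al rose most, by 0.62 ± 0.12, and is described below with its partner. Rps19bp1 matched the pattern by name but encodes a protein that binds Rps19, not a ribosomal subunit. It stood at 10.8 ± 1.69 CPM in MI and 7.27 ± 0.156 CPM in sham (log2 fold change 0.57 ± 0.18).

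Among small subunit genes, Rps27 fell most. This zinc-finger protein gene had 195, 312.5 and 239.6 CPM in MI, against 467, 465 and 462 CPM in sham. All MI values lay below all sham values, and the log2 fold change was -0.90 ± 0.14 (SE; adjusted p = 8.81e-05, edgeR), or -0.73 without MI 1. Rps21 had 159.7, 266 and 197 CPM in MI and 361, 329.5 and 298 CPM in sham, also without overlap (-0.67 ± 0.15). Rps14, whose loss of 1 copy is tied to a human myelodysplastic syndrome, had 604, 899 and 807 CPM in MI and 1202, 1222 and 1125.5 CPM in sham (-0.62 ± 0.12). Rps24, mutated in some patients with the red cell disorder Diamond-Blackfan anaemia, had 624, 808 and 738 CPM in MI and 1119, 1135 and 1053.5 CPM in sham (-0.61 ± 0.09), with no overlap. Rps6, the substrate of the S6 kinases, had 741, 959 and 899 CPM in MI and 1019, 1039 and 994 CPM in sham. Its log2 fold change was -0.23 ± 0.09 (adjusted p = 0.0417, edgeR), it was called in 8 of 15 settings, and it was named after its value was seen, as were Rpl35a, Rpl27a, Rpl5 and Rpl11 below.

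Among large subunit genes the largest falls in abundant members were smaller. Rpl30, whose yeast counterpart limits its own splicing, had 321.5, 432 and 373 CPM in MI and 589, 557 and 516 CPM in sham (log2 fold change -0.56 ± 0.11, SE). MI and sham did not overlap at Rpl30. Rpl7 had 741, 856 and 834 CPM in MI and 1147.5, 1198 and 1084 CPM in sham (-0.50 ± 0.08; adjusted p = 0.000138, edgeR). The highest MI value of Rpl7 lay below its lowest sham value. Rpl27a (-0.49 ± 0.11), Rpl35a (-0.49 ± 0.12) and Rpl22 (-0.50 ± 0.10), which mice need for normal T cell development, fell without overlap as well. Rpl5, which with Rpl11 can hold the p53 inhibitor Mdm2, fell by 0.28 on the log2 scale (SE 0.09, adjusted p = 0.0123, edgeR). Rpl11 was not called in the main setting, with 368, 528 and 456 CPM in MI and 471, 428 and 403 CPM in sham. It was called higher without MI 1 (log2 fold change 0.20) and lower with total counts (-0.30). In the large subunit 4 of 49 genes rose and 18 fell, and in the small subunit 2 of 32 rose and 13 fell. Over all genes 36.4% were higher and 36.9% lower, so the falls were near that share and the rises below it. Without MI 1, 14 of 48 and 12 of 32 rose and 15 and 13 fell, against 40.9% and 40.1% of all genes. The 16 members lower in all 15 settings included Rpl3l, Rpl7, Rpl22, Rpl22l1, Rpl27a, Rpl30, Rpl35a and Rpl37rt of the large and Rps3a1, Rps4x, Rps7, Rps14, Rps21, Rps24 and Rps27 of the small subunit names.

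In 4 of 5 paralog pairs the balance of copy and parent stood apart between the groups. For the levels of single genes, 76.1% of all genes tested stood apart in this way. A ratio within a pair needs no scaling between libraries. Each was tested two-sided by exact permutation of the 6 libraries, which cannot give a p below 0.1, and adjusted over the 5 pairs.

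Rpl3l, the muscle form of the peptidyl transferase centre protein Rpl3, had 0.796, 0.635 and 0.882 CPM in MI, against 14.8, 16.2 and 15.2 CPM in sham. It was almost lost in MI, with a log2 fold change of -4.30 ± 0.21 (SE; adjusted p = 3.62e-09, edgeR). Rpl3 itself had 923, 1142 and 1075 CPM in MI and 967, 1006 and 958 CPM in sham and was not called, with all libraries; it was called higher without MI 1 (log2 fold change 0.21) and lower with total counts (-0.25). Rpl3l made up 0.0746 ± 0.0166% of the pair's counts in MI and 1.55 ± 0.0357% in sham (SD, n = 3 each; exact permutation p = 0.1, adjusted 0.125). The cardiomyocyte markers in the same libraries had a median log2 fold change of -4.40, and their part in this fall was not tested.

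Rpl36al encodes a protein nearly the same as that of the X-linked Rpl36a. Rpl36al had 105, 143.3 and 123 CPM in MI and 84.9, 80.4 and 77.3 CPM in sham, with no overlap. Rpl36a had 117, 178 and 143.1 CPM in MI and 187, 184.9 and 177 CPM in sham; its log2 fold change of -0.32 ± 0.13 passed in 7 of 15 settings. Rpl36al supplied 47.3%, 44.6% and 46.3% of the pair's counts in MI and 31.3%, 30.3% and 30.4% in sham. The log2 ratio was 0.95 higher in MI (exact permutation p = 0.1, adjusted 0.125, n = 3 each), and 0.91 to 0.99 with any 1 library left out.

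Rps27l, a relative of Rps27 that p53 activates in human cells, was not called with all libraries, with 63.9, 82.8 and 76.4 CPM in MI and 59.9, 73.5 and 52.5 CPM in sham. It was called higher without MI 1 (log2 fold change 0.38) and without sham 2 (0.41), and was -0.09 and not called with total counts. Rps27l made up 24.7%, 20.95% and 24.2% of the pair's counts in MI and 11.4%, 13.6% and 10.2% in sham. The log2 ratio was 1.197 higher in MI without overlap (exact permutation p = 0.1, adjusted 0.125). Rpl7l1, whose yeast relative assists ribosome assembly, was not called in the main setting and was called lower with total counts (-0.30). Its log2 ratio to Rpl7 was 0.54 higher in MI (exact permutation p = 0.1, adjusted 0.125). Rpl22 and Rpl22l1 fell together: Rpl22l1 was 30.2 ± 1.14% of the pair's counts in MI and 28.5 ± 1.45% in sham, which overlapped (exact permutation p = 0.2, adjusted 0.2, n = 3 each). Per length Rpl22l1 was the larger partner, with 68.0 ± 1.18% of the pair's TPM in MI and 66.2 ± 1.58% in sham.

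**Figure D3:**
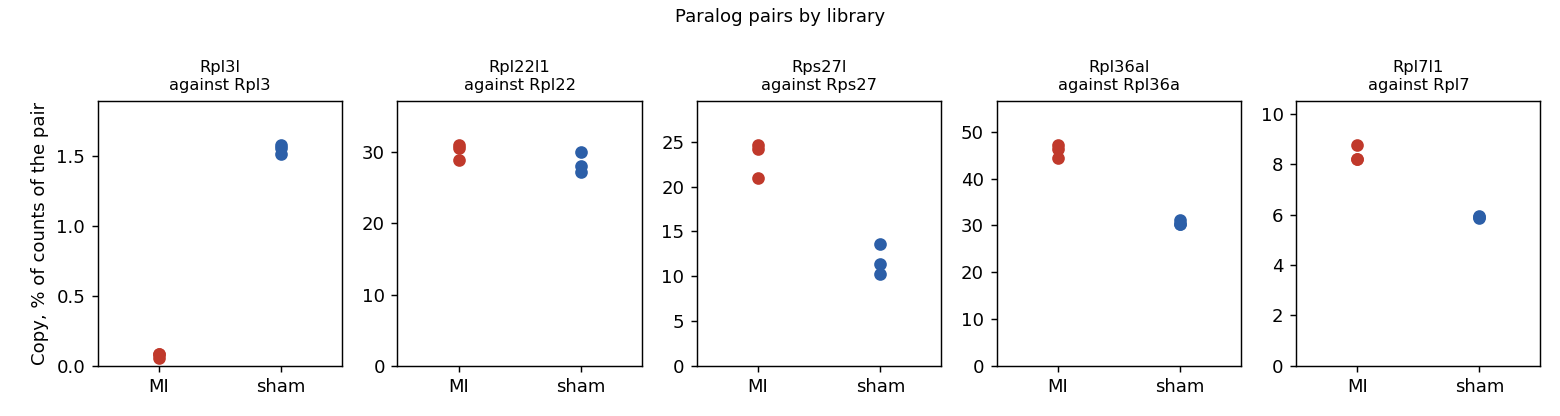
Counts of the copy as a percentage of the counts of copy and parent together, 1 point for each library, MI red and sham blue, with each axis starting at 0 on its own scale. Rpl3l is at 0.0746% in MI and 1.55% in sham on average, Rpl36al at 46.0% in MI and 30.7% in sham, Rps27l at 23.3% in MI and 11.7% in sham, Rpl7l1 at 8.41% in MI and 5.92% in sham, and the Rpl22l1 points overlap.

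Other copies were rare, and their counts are uncertain because reads of near-identical genes can be divided. Rpl37rt, a retrotransposed copy of Rpl37, had 11.7, 16.6 and 10.5 CPM in MI and 20.3, 20.0 and 34.8 CPM in sham, a log2 fold change of -0.94 ± 0.23. The sham values spread widely but lay above all MI values. Rpl6l was not called, with a log2 fold change of -0.30 ± 0.49. The 4 members below the filter were Rps27rt, with 12, 0 and 0 counts in MI and 0 in each sham library, Rpl39l, with 3, 7 and 6 in MI and 0, 7 and 0 in sham, Rpl10l, with 0, 1 and 0 in MI and 2, 0 and 2 in sham, and Rpl32l, with 3, 1 and 3 in MI and 0 in sham. A count of 0 over the sham group allows up to 0.26 CPM, so no absence can be read from these values.

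Within MI, the members moved together by library. MI 1 lay below the mean of MI 2 and MI 3 at 79 of 81 tested members, against 50.4% of all genes tested. It was the lowest of the 3 MI libraries at 77 members, and 76 members had the order MI 1, MI 3, MI 2 from low to high. Over all genes tested the last 2 shares were 43.4% and 30.6%. The median difference in log2 CPM between MI 1 and that mean was -0.39 over the members and -0.00 over all genes. The median coefficient of variation of the members was 16.2% within MI and 3.58% within sham, against 10.99% within MI and 10.2% within sham over all genes. MI 1 was not the lowest at Rps19bp1, Rpl3l, Rpl37rt and Rpl6l, all rare messages.

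The members farthest down in MI 1 were genes of short messages. Rpl38, which mouse embryos need for the translation of Hox messages, had 105, 201 and 137 CPM in MI and 186, 173 and 149 CPM in sham. MI 2 was above and MI 1 and MI 3 were below all sham values, and the gene was not called (log2 fold change -0.20 ± 0.19, SE). Without MI 2 Rpl38 was called lower (-0.49). Rps29 had 225, 426 and 284 CPM in MI and 466, 397 and 425 CPM in sham; it was called lower (-0.46 ± 0.18) although MI 2 lay within the sham values, and it passed in 9 of 15 settings. Rpl41, the smallest ribosomal protein, had 401, 708 and 523 CPM in MI and 514, 509 and 533 CPM in sham and was not called with all libraries, but rose by 0.27 on the log2 scale without MI 1. Rpl39, of the exit tunnel, and Rpl28 were likewise not called with all libraries but called lower without MI 2 (-0.46 and -0.31), with MI 1 lower than MI 2 and MI 3 by 0.59 and 0.56 on the log2 scale (values of -0.59 and -0.56).

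The difference of MI 1 was larger at short messages, among members and among other genes, in an analysis added after seeing the data; above 900 bases the members stayed low while the other genes did not. Length was taken from the authors' counts and FPKM. Over 77 members with a mean of at least 50 CPM, Spearman's rho between length and the difference of MI 1 was 0.57 and Pearson's r with log2 length was 0.53. Over 4122 other genes at that level rho was 0.66. These are descriptions across genes that share libraries and depth. For messages up to 500 bases the median difference was -0.44 over 24 members and -0.40 over 42 other genes. From 500 to 900 bases it was -0.39 over 32 members and -0.35 over 159 other genes. Above 900 bases it was -0.33 over 21 members and 0.03 over 3921 other genes, with median lengths of 1240 bases over these members and 3190 bases over these other genes. Among these long members Rps20 (3397 bases, -0.41) and Rps15a (5087 bases, -0.37) were low in MI 1 as well, a pair chosen after seeing the values. Spearman's rho between length and the log2 fold change of MI against sham was 0.12 among members and 0.00 among other genes. By bin, however, the median log2 fold change of other genes was -0.16 up to 500 bases, 0.01 from 500 to 900 and 0.33 above 900. Over members the medians of these bins were -0.23, -0.09 and -0.23. The part of length in the calls was not tested.

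**Figure D4:**
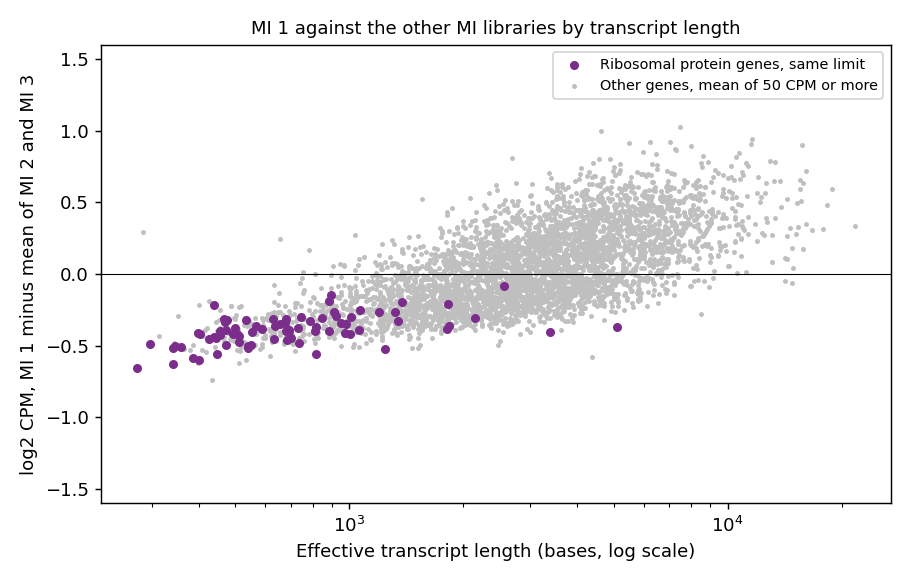
Difference in log2 CPM between MI 1 and the mean of MI 2 and MI 3 against effective transcript length (log axis), for 77 members (purple) and 4122 other genes (grey) with a mean of at least 50 CPM. Short messages lie below 0 in both sets, and the members lie between -0.66 and -0.08.

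The order of the members by level was largely shared by the groups. Over the same 77 members Spearman's rho between mean TPM in MI and in sham was 0.91, a description across genes, and 6 of the 10 highest were common to both. Rps14 was the highest member in sham, with 4078 ± 192 TPM there and 2357 ± 328 TPM in MI, where it ranked after Rpl10 and Rps2. Rpl10 had 3136 ± 199 TPM in MI and 2847 ± 94.1 TPM in sham, and Rps2 had 2611 ± 208 TPM in MI and 2166 ± 44.9 TPM in sham (SD, n = 3 each). Rpl10 lay above Rps2 by more than the SD of either in both groups, while Rps2 and Rps14 overlapped within their SD in MI. By counts, the 5 members with the largest share were Rps2, Rpl10, Rpl4, Rpl3 and Rps3a1 in MI and Rps4x, Rps14, Rps3a1, Rpl7 and Rpl10 in sham. Rpl4 was not called in the main setting, with 1057, 1218.5 and 1201 CPM in MI and 1053.5, 1104 and 1003 CPM in sham. It was called higher without MI 1 (log2 fold change 0.22) and lower with total counts (-0.21). Rps4x, the X-linked small subunit gene, had 826, 1032.5 and 989 CPM in MI and 1259, 1229 and 1139.6 CPM in sham (log2 fold change -0.35 ± 0.09, SE), with no overlap. Rps3a1 had 905, 1039 and 962 CPM in MI and 1229, 1155 and 1158 CPM in sham (-0.29 ± 0.08), also apart.

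Ribosomal proteins that the name pattern leaves out did not fall under TMM scaling. Of 7 such genes 3 rose and 0 fell (median log2 fold change 0.18), against 36.4% and 36.9% of all genes. With total counts 0 rose and 3 fell, against 26.5% and 49.6% of all genes. Rplp0, the base of the large subunit stalk that recruits elongation factors, had 1230.3, 1594.5 and 1486 CPM in MI and 974, 1020.1 and 1019 CPM in sham (log2 fold change 0.52 ± 0.09, SE). Rpsa, a small subunit protein also known as a laminin receptor, had 968.5, 1291 and 1171 CPM in MI and 824, 777 and 777 CPM in sham (0.53 ± 0.10). Both stood without overlap, and both had MI 1 lowest within MI. Rack1, a signalling scaffold on the small subunit, rose by 0.25 ± 0.10 on the log2 scale. Fau, Rplp1 and Rplp2 were not called.

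The counts of the lists that follow stand beside all-gene shares of 36.4% higher and 36.9% lower under TMM, 40.9% and 40.1% without MI 1, and 26.5% and 49.6% with total counts. Among genes that build ribosomes and start translation, higher calls outnumbered lower calls under TMM. Of 69 genes of ribosome assembly and rRNA synthesis, 31 rose and 7 fell (median 0.30), or 37 and 10 without MI 1 and 22 and 20 with total counts. Among them were Fbl, the rRNA methylase of the nucleolus, with 88.7 ± 10.5 CPM in MI and 33.0 ± 1.16 CPM in sham, Myc, a driver of rRNA and ribosomal protein synthesis, with 37.9 ± 1.91 CPM in MI and 10.97 ± 1.77 CPM in sham, and Rrp12 and Ltv1, both for subunit maturation or export, with log2 fold changes of 2.14 ± 0.18 and 1.30 ± 0.10 (SE). Of 41 initiation factor genes 26 rose and 5 fell (median 0.40), against 14 and 11 with total counts. The poly(A)-binding protein gene Pabpc1, itself an oligopyrimidine message, had 848 ± 53.0 CPM in MI and 291 ± 7.64 CPM in sham, the cap-binding gene Eif4e 248 ± 9.85 CPM in MI and 83.2 ± 6.23 CPM in sham, and the helicase gene Eif4a1 rose by 1.11 on the log2 scale while its paralog Eif4a2 fell by 1.27.

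Of 10 elongation factor genes 4 rose and 3 fell (median 0.08), near the all-gene shares, against 2 and 6 with total counts. Eef1a1 had 9247 ± 303 CPM in MI and 7549 ± 128 CPM in sham, and Eif5a 499.8 ± 58.5 CPM in MI and 258 ± 2.43 CPM in sham, whereas the muscle and nerve form Eef1a2 fell to 5.56 ± 0.849 CPM in MI, against 73.5 ± 1.41 CPM in sham. Among 22 genes that control oligopyrimidine messages 8 rose and 7 fell (median 0.11), near the all-gene shares, against 5 and 11 with total counts. Larp1, which binds the tract, had 111 ± 2.46 CPM in MI and 44.1 ± 4.28 CPM in sham, Rps6ka1 rose by 1.23, Larp4b by 1.39 and the mTOR partner gene Rptor by 1.16 on the log2 scale, and Mtor was not called. Named after their values were seen, Tia1, which binds these messages, fell by 0.93 and Larp1b by 0.43. Of 78 mitochondrial ribosomal protein genes 10 rose and 25 fell (median -0.12), and the 4 with the smallest p were Mrpl42 (-0.90), Mrpl49 (-0.98), Mrpl50 (-0.94) and Mrpl51 (-0.83). Without MI 1, 17 rose and 23 fell, and with total counts 2 rose and 52 fell. These lists moved in libraries where macrophage markers rose and endothelial and cardiomyocyte markers fell, as given above.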

How the data were processed

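Estimated counts of each gene were deposited, made by the authors from BGISEQ-500 reads mapped to mouse GRCm38 per the series' design text (build GRCm38.p6 per the submitters' processing notes). The same table held FPKM and TPM made by the authors, and a deposited scaled count (a signal value), which was not used. The aligner, counter and annotation are not given in the sources used here. After rounding to integers, edgeR 4.0.16 (R 4.3.3) kept 13370 genes with filterByExpr, scaled libraries by TMM (median factor 0.889 in MI, 1.13 in sham) and fitted the quasi-likelihood model with group as the only term, with Benjamini-Hochberg adjustment over all genes tested. Standard errors were derived from each log2 fold change and its F statistic. CPM use TMM-adjusted library sizes, with 0.5 CPM added before logs. The procedure was tested on simulated data with few changed genes, balanced up and down, and the same spread setting for every gene. These libraries differ from that, so the test does not cover their scaling or the spread of MI 1. Transcript lengths were taken from the authors' FPKM and counts. Pairs of libraries in a group differed beyond counting noise (chi-square per gene 1.52 to 37.8), so none was counted as a repeat.

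Named genes were the 5 members with the largest share in each group, up to 8 called rises and 8 falls with separate groups and 5 CPM, paralog pairs, the 5 members farthest from 0 in MI 1 against MI 2 and MI 3, called members against the majority, and up to 4 genes per list by p. Members, lists and rules were chosen with earlier results of these data known. Windows and positions came from RefSeq, which matched all 85 members. None of 18 small nucleolar RNA host genes on a further list was in the table, and a Rps4x copy, Rps4l, was not analysed here. Some single genes that enter the counts are not reported here by name. Alternatives included DESeq2 1.42.0 and limma 3.58.1.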

Additional observations from a re-analysis of the deposited data

How the results depend on the processing

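The cause of the changes below was not tested. Scaled to total counts, 0 members were higher and 67 lower with a median of -0.55, against 26.5% and 49.6% of all genes. Also with total counts, higher and lower calls were 0 and 3 for ribosomal proteins outside the name pattern, 2 and 6 for elongation factors, 14 and 11 for initiation factors, 5 and 11 for control of oligopyrimidine messages, 2 and 52 for mitochondrial ribosomal proteins, and lower calls were 20 for ribosome assembly. The log2 fold changes of Rpl10 (-0.0451), Rpl7a (-0.0386), Rpl4 (-0.21), Rpl3 (-0.25) and Rpl7l1 (-0.30) reversed there; those of Rpl41 (-0.28) and Rps27l (-0.09) also turned sign, without a call in either setting. With limma on log2(TPM + 1), 53 members were lower, against 42.1% of all genes. With 1 library left out, 5 to 26 members were higher and 17 to 45 lower, with a median of -0.29 to -0.04. Over all genes 33.0% to 40.9% were then higher and 32.1% to 40.1% lower. Without MI 1, 17 mitochondrial ribosomal protein genes were higher. In TPM the share was 9.80% in MI and 12.3% in sham and the subunit ratio 1.23 and 1.15. The sham share was 5.25% without LOC118568718 and Gm20594 and 5.23% without genes of at least 1% of counts.

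RLE scaling, DESeq2, no filter, a stricter filter and thinning of MI to the sham depth gave 6 or 7 members higher and 21 to 35 lower. Over all genes these settings gave 29.7% to 37.9% higher and 27.2% to 37.3% lower. With DESeq2, 7 members were higher and 21 lower, against 32.4% and 29.4% of all genes. With the replicate number as a block, 6 members were higher and 31 lower, against 35.6% and 36.4% of all genes. Of these 31, 30 were the same genes. Deviations of same-numbered libraries correlated at -0.0679 to 0.000121, and no library correlated best with its own number. With so few libraries these values cannot tell whether same-numbered libraries share more than a number. The 28 named members with a test kept direction and side of the threshold in 340 alternative values. With the sign kept, the call was lost in 23 and gained in 14; the sign turned in 15, 10 of them without a call before or after. The sham depth limits rare members, where 3 counts are 0.742 to 0.828 CPM in a library.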
